A study of Mus musculus with 4 samples.

Results

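Sox9 and Cst9 are genes of fetal Sertoli cells, the supporting cells that enclose the germ cells of the testis. They were chosen by the levels and calls in the 6 deposited pairwise tables, where both stood higher in a testis library exposed to ibuprofen with acetaminophen, so the values below describe them and are no test. Rows were found by gene name, and the pair is 2 of the 235 named genes in the tables. The study examined the effect of anti-inflammatory drugs and acetaminophen, taken up before birth, on testis formation. RNA came from gonads of wild-type CD1 embryos at E13.5, freed of the mesonephros, and there were 4 libraries, 1 for each group. Control had its treatment labelled as none and is called EtOH inside the tables, ACE+ACE received acetaminophen, ASP+ACE received aspirin with acetaminophen, and IBU+ACE received ibuprofen with acetaminophen. The sources used here state no doses, days of exposure or pooling of embryos.

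The protein SOX9 is a transcription factor with an HMG box, the DNA-binding domain of the SOX family. In the XY gonad SRY, together with NR5A1, switches Sox9 on in the supporting cell lineage. SOX9 then drives these cells to become Sertoli cells and activates genes such as Amh, the gene of anti-Müllerian hormone. Signals through FGF9 and prostaglandin D2, the product of the enzyme encoded by Ptgds, help to keep it on. Sox9 is not restricted to the testis, since with Sox5 and Sox6 it also drives cartilage formation and activates Col2a1 and Acan. Cst9, also known as testatin, belongs to the cystatin family, named for inhibitors of cysteine proteases, and is switched on in fetal Sertoli cells as the testis forms. Ibuprofen and aspirin inhibit the cyclooxygenases, encoded by Ptgs1 and Ptgs2, which start prostaglandin synthesis.

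The coding sequences below are shown because each member has relatives whose reads could be taken for its own. The deposited Sox9 locus (GRCm38, chr11:112782224-112787760, + strand) equals the annotated gene, with 3 exons, and no other annotated gene overlaps it. Its closest relatives are Sox8 and Sox10. The longest run shared by the coding sequences of Sox9 and Sox10 is 44 bases in exon 1 of Sox9 (chr11:112782831-112782874), given in capitals with 15 bases on either side from GENCODE.
Sox9: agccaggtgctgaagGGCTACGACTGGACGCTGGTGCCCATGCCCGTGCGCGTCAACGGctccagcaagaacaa
Sox10: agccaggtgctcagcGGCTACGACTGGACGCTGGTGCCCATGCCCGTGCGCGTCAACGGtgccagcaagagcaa
With Sox8 the longest shared run is 23 bases, in exon 2 of Sox9 (chr11:112783864-112783886). Reads were 75 nt long, and none of the 4061 windows of that length along the Sox9 transcript occurs in an annotated transcript of another gene.

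The deposited Cst9 locus (chr2:148820081-148838738, + strand) spans 2 genes, Cst13 and Cst9, so its value may include Cst13, another member of the cystatin family. Cst9 itself has 3 exons and begins at position 148835147. The first 90 coding bases of both genes are given with the start codon in capitals, from exon 1 of Cst9 (chr2:148835211-148835300) and exon 2 of Cst13 (chr2:148823087-148823176).
Cst9: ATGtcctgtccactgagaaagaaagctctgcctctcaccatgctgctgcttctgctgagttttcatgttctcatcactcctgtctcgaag
Cst13: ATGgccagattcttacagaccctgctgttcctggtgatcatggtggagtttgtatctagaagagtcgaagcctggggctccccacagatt
The coding sequences of Cst9 and Cst13 were identical at 53.3% of aligned bases and shared no run longer than 8 bases. None of the 613 windows of 75 nt along the Cst9 transcript occurs in an annotated transcript of another gene, so the pair can be told apart at the level of a read. The sources used here do not state how the authors divided the reads of the joint locus.

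**Figure D1:**
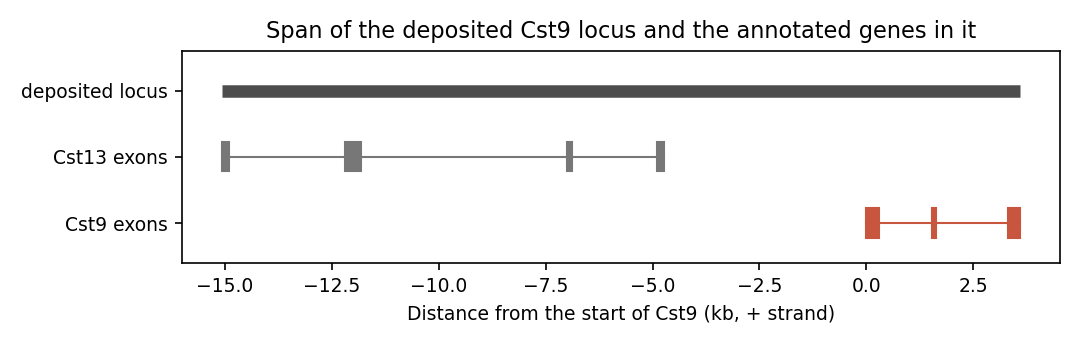
The horizontal axis is the distance in kb from the annotated start of Cst9, and the rows show the deposited locus, the 4 exons of Cst13 and the 3 exons of Cst9. The deposited span starts at the first exon of Cst13 and ends at the last exon of Cst9.

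Of the 2 members, RefSeq promoter sequence (GRCm38.p6) was matched for 1, Cst9. Its 250 bases before the start (chr2:148834897-148835146, + strand) are printed because Cst9 stood higher in the same library as a SOX gene.
Cst9 promoter: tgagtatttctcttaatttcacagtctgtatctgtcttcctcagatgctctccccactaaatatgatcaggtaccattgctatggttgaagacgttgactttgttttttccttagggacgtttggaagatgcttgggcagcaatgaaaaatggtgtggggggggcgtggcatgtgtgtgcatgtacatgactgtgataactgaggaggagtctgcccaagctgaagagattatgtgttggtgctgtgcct
Both strands were searched for the SOX core ACAAT, its longer form AACAAT, the NR5A1 motif AAGGTCA, the GATA site AGATAA, the TATA box TATAAA and the CCAAT box. There were 0 matches to any of them. Of 32851 promoters of that length in the table, 27.7% held ACAAT, 9.42% AACAAT (which contains ACAAT), 4.08% AAGGTCA, 9.99% AGATAA, 12.4% TATAAA and 33.8% CCAAT. The absence says only that these letters are not in this window. Other forms of the SOX and GATA motifs were not searched. The printed window holds ctttgtt, which is AACAAAG on the other strand, a further form of the SOX motif. It also holds tgataa, a further form of the GATA site. The share of promoters with these forms was not counted, and binding of SOX or GATA proteins there was not tested.

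The level of Sox9 was 5.98 FPKM in Control, 5.97 FPKM with acetaminophen (ACE+ACE), 5.22 FPKM with aspirin and acetaminophen (ASP+ACE) and 10.04 FPKM with ibuprofen and acetaminophen (IBU+ACE). Levels are read as FPKM from the layout of the tables, a unit that scales the fragments of a transcript by its length and by the mapped fragments of the library. Control, ACE+ACE and ASP+ACE lay close together, the highest of these 3 being 1.14 times the lowest, and IBU+ACE stood 1.68 times above the highest of them. With 1 library per group there is no spread between replicates to set beside these levels, so each difference is between libraries. The order from high to low was IBU+ACE, Control, ACE+ACE and ASP+ACE, and the authors' tables list no difference between any pair of the last 3. A missing row means that no call was made, not that levels were equal.

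Against Control, Sox9 in IBU+ACE has a log2 fold change of 0.75 per the authors' deposited table, with a q-value of 0.0310 that is the same in all rows of all tables. This table lists 39.5% of the 382 transcripts found in any table as higher in IBU+ACE. Against ACE+ACE the log2 fold change of Sox9 in IBU+ACE was also 0.75 in the authors' deposited table, which lists 54.2% of those transcripts as higher in IBU+ACE. Against ASP+ACE it was 0.94 in the authors' deposited table, beside 41.9% listed as higher. Sox9 is thus listed in 3 tables, all of those that hold IBU+ACE, and these comparisons share that library. The log2 ratio computed from the levels was -0.0021 for ACE+ACE over Control and -0.20 for ASP+ACE over Control. Centring each library pair on transcripts that its table does not list, all of which were called in another table, turned the first of these to 0.16 and left the second at -0.035.

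The level of Cst9 was 63.3 FPKM in Control against 114 FPKM in IBU+ACE. The authors' deposited table of this pair gives it a log2 fold change of 0.85, and it is the single table that lists Cst9. No level of Cst9 in ACE+ACE or ASP+ACE can be read from the tables, so how IBU+ACE stood to those libraries is unknown. Per kilobase of transcript, Cst9 was 10.6 times as abundant as Sox9 in Control and 11.3 times in IBU+ACE. The level of both members in IBU+ACE was thus higher than in Control, by 1.68 times for Sox9 and 1.80 times for Cst9. In whole gonads, more cells of a type and more RNA per cell cannot be told apart.

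**Figure D2:**
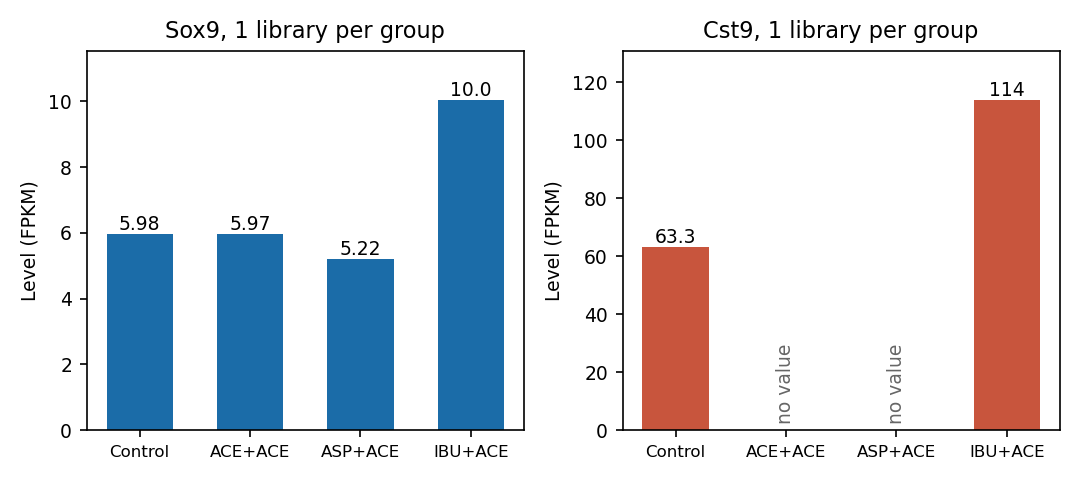
Bars give the deposited level in FPKM of Sox9 (left) and Cst9 (right) in the 1 library of each group, from a baseline of 0. Sox9 lies between 5.22 and 5.98 FPKM in the first 3 libraries and at 10.04 FPKM in IBU+ACE, and Cst9 has no value in ACE+ACE or ASP+ACE.

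Both genes sat among the smaller differences of their tables but among the better expressed transcripts. Of the 151 transcripts listed as higher in IBU+ACE than in Control, 12 had a smaller log2 fold change than Sox9 and 19 a smaller one than Cst9, where the median of the 151 was 1.86. In the IBU+ACE library 32 of these 151 transcripts had a higher level than Sox9 and 4 a higher level than Cst9, and the median level was 2.21 FPKM. The same held against ACE+ACE, where 4 of 207 transcripts listed as higher had a smaller log2 fold change than Sox9, and against ASP+ACE, where 17 of 160 did. No listing of Sox9 or Cst9 reached an absolute log2 fold change of 1.

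**Figure D3:**
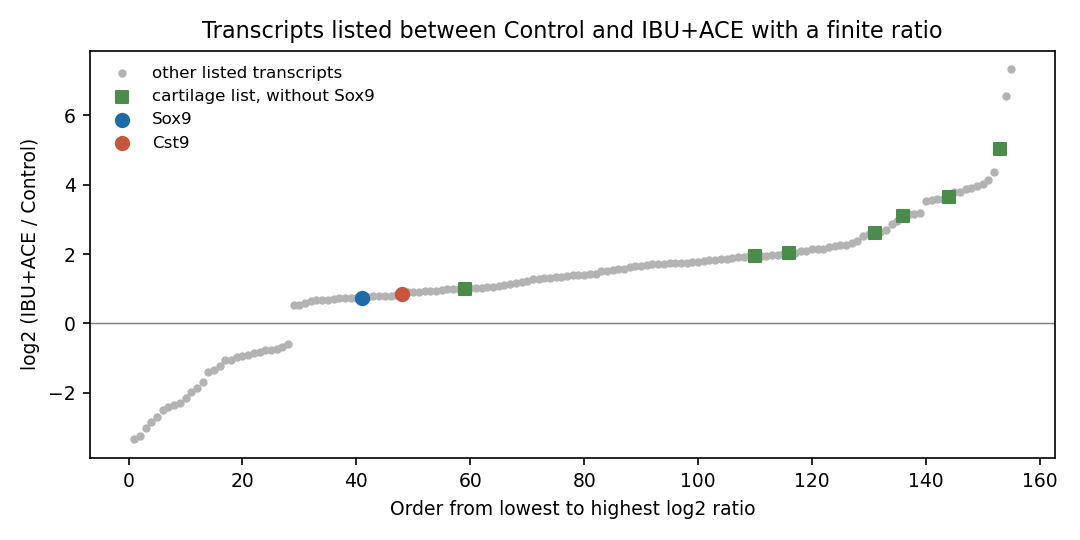
Each point is 1 of the 155 transcripts listed between Control and IBU+ACE with a value above 0 in both libraries, ordered by its log2 ratio of IBU+ACE over Control on the vertical axis. Sox9 (0.75) and Cst9 (0.85) lie at the low end of the transcripts that were higher, below the cartilage genes.

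Other Sertoli cell genes were almost absent from the tables. Of 36 Sertoli genes, 3 appear in any table: Sox9, Cst9 and Trf. In IBU+ACE over Control 2 of the 36 (5.56%) were listed, Sox9 and Cst9 themselves, both higher. Both were chosen for standing higher there, so this count and direction restate the choice. Of the 382 transcripts 39.5% were listed as higher, but the Sertoli list also counts genes never listed, so nothing is read from the shares. The median log2 fold change of the 2 was 0.80, beside 1.86 over the 151 transcripts listed as higher. Trf, the gene of transferrin, which Sertoli cells and liver both make, is listed in 1 table. Its level was 29.2 FPKM in Control against 6.28 FPKM in ACE+ACE. The authors' deposited table gives it a log2 fold change of -2.22 and lists 13.1% of the 382 transcripts as lower in ACE+ACE. In that comparison 13 of 21 liver genes, Trf among them, were lower and 0 higher, with a median log2 fold change of -1.87, and no other Sertoli gene was listed. The part of liver RNA in the Trf level was not tested. ASP+ACE over Control, which lists 11.5% of the transcripts, and ASP+ACE over ACE+ACE, which lists 6.28%, held 0 of the 36. Amh, Dhh, Sox8, Aard, Ptgds, Fgf9 and Dmrt1, which with Sox9 and Cst9 were the markers set to check for Sertoli cells, have no row, so the cell type cannot be checked on more than the 2 members.

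Genes that act before and after Sox9 in the gonad were likewise not listed. None of 19 regulators of Sox9, among them Sry, Nr5a1, Wt1, Gata4, Cbx2 and Fgfr2, has a row in any table. The same was true of 14 targets of Sox9 in Sertoli cells, among them Amh, Cyp26b1, which breaks down retinoic acid, and Hsd17b3, which completes testosterone synthesis. It was also true of 22 prostaglandin genes, among them Ptgs1, Ptgs2, Ptgds, Hpgds and the receptor gene Ptgdr. Of 25 cystatin and cathepsin genes, the inhibitors and their protease targets, Cst9 alone was listed. Only 235 genes are named in any comparison, so nothing is read from these counts. Apart from Cst9, the levels of these genes are unknown in all 4 libraries, and no direction can be given for them.

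Nearby genes were not listed either. Within 1000000 bases of the Sox9 locus on either side lie 20 annotated genes, 9 of them protein-coding, and no transcript other than Sox9 is listed there. Around Cst9 the same window holds 37 annotated genes, 8 of them cystatin genes with Cst9 included, and Cst9 is the single transcript listed. Since only 235 genes are named in any comparison, nothing is read from the absence of neighbours.

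Cartilage genes that were listed in IBU+ACE were higher there, as Sox9 was. Of the 30 symbols of the cartilage list, 8 genes including Sox9 were listed in IBU+ACE over Control, all higher, with a median log2 fold change of 2.33. The same number was listed, all higher, over ACE+ACE and over ASP+ACE. That is 26.7% of the list each time, beside 39.5%, 54.2% and 41.9% of the 382 transcripts in any table. The denominators differ, since the list also counts genes found in no table, and nothing is read from the shares. Col2a1, the main collagen of cartilage and a known target of SOX9 there, had a level in Control of 2.92 FPKM, in ACE+ACE of 2.25 FPKM, in ASP+ACE of 1.10 FPKM and in IBU+ACE of 36.3 FPKM. It was also lower in ASP+ACE than in Control, where the authors' deposited table gives a log2 fold change of -1.41 and lists 7.59% of the 382 transcripts as lower. Its range was wider than that of Sox9, with the level in ASP+ACE below that in the other libraries.

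Col11a1, a collagen of the same fibrils, had levels near those of Sox9 in each library, at 6.04, 5.88 and 5.31 FPKM in Control, ACE+ACE and ASP+ACE and at 12.1 FPKM in IBU+ACE. The Col9a1 transcript with 4 values went from 2.05, 1.54 and 1.07 FPKM in Control, ACE+ACE and ASP+ACE to 7.83 FPKM in IBU+ACE. Its second transcript was at 0.932 FPKM in ACE+ACE, 0.691 FPKM in ASP+ACE and 5.73 FPKM in IBU+ACE. Gdf5, a growth factor of joints, was at 0.159, 0.174 and 0.0916 FPKM in those 3 libraries and at 5.25 FPKM in IBU+ACE. Matn3, a cartilage matrix protein gene, was at 0.0873, 0.137 and 0.0850 FPKM and at 0.743 FPKM in IBU+ACE. Acan, the gene of the cartilage proteoglycan aggrecan, was listed in 1 table, with 0.185 FPKM in Control against 1.13 FPKM in IBU+ACE. Col11a2, another collagen of cartilage fibrils, had 2 listed transcripts. The one listed against Control was at 0.340 FPKM there, 0.226 FPKM in ASP+ACE and 1.40 FPKM in IBU+ACE, and the other at 0.172 FPKM in ACE+ACE and 0.980 FPKM in IBU+ACE. Ihh, a hedgehog ligand of growing cartilage, was at 0.266 FPKM in ACE+ACE, 0.238 FPKM in ASP+ACE and 0.924 FPKM in IBU+ACE. In each of these genes IBU+ACE held the highest value that can be read. They were listed only in comparisons with IBU+ACE, and as higher there. As for Sox9, the highest value in IBU+ACE thus follows from the listing and is a description.

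**Figure D4:**
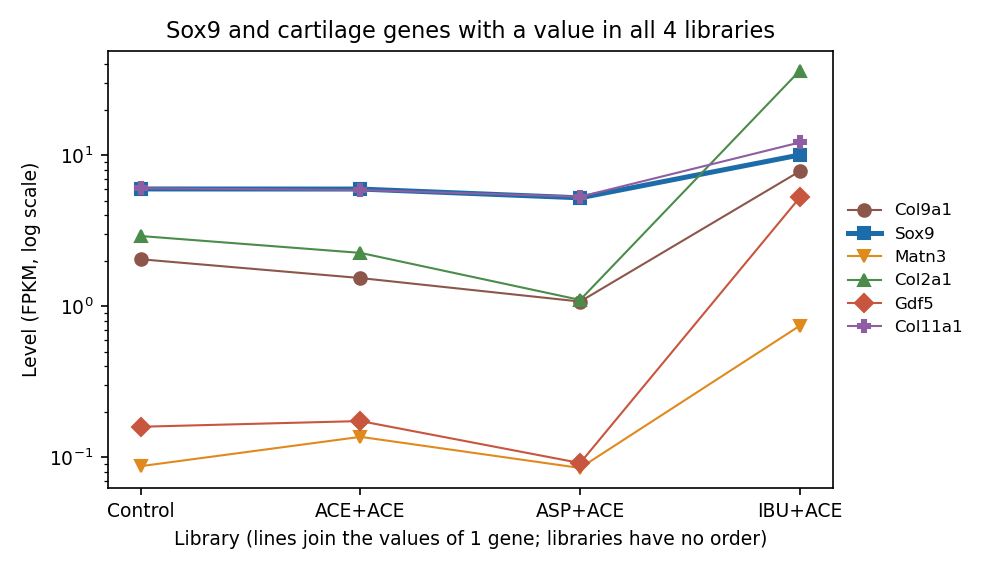
Points give the deposited level in FPKM on a log axis for Sox9 (thick line) and the 5 other cartilage-list transcripts with a value in all 4 libraries. Col11a1 runs close to Sox9, from 5.31 to 12.1 FPKM, while Col2a1 spans 1.10 to 36.3 FPKM.

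Markers of other tissues differed between the libraries in both directions. A gene has levels in the tables only where it was called, and the listed limb, skin and cartilage genes were called only against IBU+ACE, but for the further call of Col2a1 in ASP+ACE over Control, so a higher sum there follows from how they came to have values and is a description. The 5 cartilage genes other than Sox9 with a value in all 4 libraries summed to 11.2, 9.98 and 7.66 FPKM in Control, ACE+ACE and ASP+ACE and to 62.3 FPKM in IBU+ACE, with none at 0. For 5 of 19 limb genes with 4 values the sums were 1.31, 1.26, 1.14 and 31.5 FPKM, and for 4 of 16 skin genes 4.65, 3.43, 3.69 and 19.0 FPKM, again with none at 0. Gdf5 stands in both the cartilage and the limb list. For 3 of 15 erythroid genes the sums were 3034, 2362 and 1825 FPKM in Control, ACE+ACE and ASP+ACE and 1582 FPKM in IBU+ACE, the lowest of the 4. For 9 of 21 liver genes they were 220.3, 61.4 and 139 FPKM and then 233 FPKM. The germ cell gene Lefty1 and the neural gene Chgb are the single members of their lists with 4 values. Lefty1 was at 9.37, 11.0 and 8.41 FPKM in Control, ACE+ACE and ASP+ACE and at 4.53 FPKM in IBU+ACE. Chgb was at 0.719, 0.115, 0.0809 and 0.0759 FPKM in the same order, low in every exposed library. Of 23 germ cell genes, 2 were listed as higher and 3 as lower in IBU+ACE over Control, beside 151 and 34 of the 382 transcripts. Over ACE+ACE 3 germ cell genes were higher and 3 lower, beside 207 and 25 transcripts. Xist, the RNA of the inactive X chromosome in female cells, had 0.954, 0.710 and 0.668 FPKM in Control, ACE+ACE and ASP+ACE and 11.1 FPKM in IBU+ACE. The part of these tissues in the levels of Sox9 and Cst9 was not tested. Cst9 itself stands in none of the cartilage, limb and skin lists. None of 18 Leydig, 12 endothelial and 9 mesonephros genes is listed in any table.

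Of the 15 ovarian genes, 2 were listed in IBU+ACE against each other library, both higher, or 13.3% of the list beside the 39.5%, 54.2% and 41.9% given above. Bmp2, a growth factor of the fetal ovary that is also active in limb mesenchyme, had 0.979, 0.937 and 0.897 FPKM in Control, ACE+ACE and ASP+ACE and 2.09 FPKM in IBU+ACE. Irx5, a homeobox gene of the developing ovary and limb, had 0.200, 0.209 and 0.147 FPKM and then 2.41 FPKM. Foxl2, Wnt4, Rspo1 and Fst, which mark the ovarian program that opposes Sertoli fate, have no row.

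The gene whose pattern over the 4 libraries was most like that of Sox9 was Thbs1, which encodes the matrix protein thrombospondin 1, among 86 named transcripts with a value above 0 in all 4 libraries. Likeness was the root mean square difference between log2 levels, each centred on its own mean, and was 0.030 for Thbs1. The levels of Thbs1 were 7.89, 8.02 and 6.70 FPKM in Control, ACE+ACE and ASP+ACE and 13.6 FPKM in IBU+ACE. Next came Sox11, another SOX gene, at 0.064, Gli3, a transcription factor of hedgehog signalling, at 0.078, and Capn6, a calpain-family gene, at 0.079. Sox11 had 19.3, 17.3, 16.8 and 30.5 FPKM in the same order of libraries. All 4 had their highest level in IBU+ACE, and for Thbs1, Sox11 and Capn6 the lowest was in ASP+ACE, as for Sox9. These genes were picked for their likeness to Sox9 over the same 4 libraries, so the shared pattern restates the choice. With 4 points that share libraries it is a description.

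For Cst9 the comparison rests on the ratio of 2 libraries, among 136 named transcripts. Capn6 was closest, at 0.0060, with 14.6 FPKM in Control against 26.0 FPKM in IBU+ACE. Ahsg, the gene of the liver protein fetuin-A, followed at 0.023, the long non-coding RNA gene 2610203C20Rik at 0.024, Gli3 at 0.026 and Gm26778 at 0.027. Capn6 and Gli3 were thus among the closest genes of both members, although the likeness to Cst9 rests on a single ratio. A second transcript of Gli3 has no value in Control and could not be compared. It was at 3.82 FPKM in ACE+ACE, 3.66 FPKM in ASP+ACE and 8.69 FPKM in IBU+ACE. The authors' log2 fold changes of IBU+ACE for it were 1.19 over ACE+ACE and 1.25 over ASP+ACE.

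**Figure D5:**
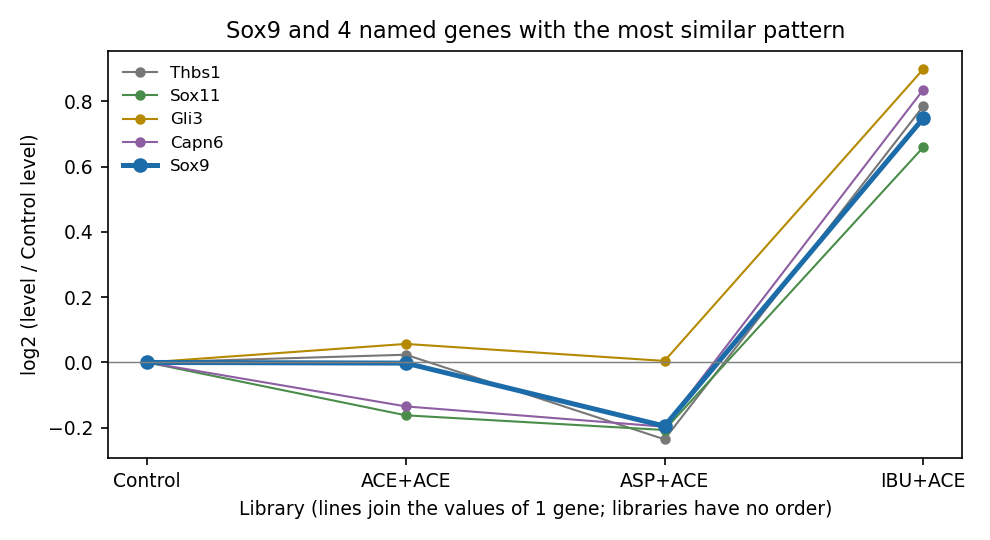
Lines give the log2 level relative to Control of Sox9 (thick line) and of 4 named genes with the most similar pattern in each of the 4 libraries. All 5 are highest in IBU+ACE, where Sox9 is at 0.75, Sox11 at 0.66 and Gli3 at 0.90.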

How the data were processed

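Per the submitters' processing notes, TopHat2 2.1, Bowtie2 2.2.6, Cufflinks 2.2.1, SAMtools 1.3, bcl2fastq 2.17 and FastQC were used with GRCm38. The sources used here state no settings, annotation or strand handling. The authors deposited 6 tables, 1 per pair of libraries, which hold, per the file headers, both levels, the log2 fold change, and its p-value and q-value. Levels are taken as FPKM from the Cufflinks layout, since the headers name no unit. All 726 rows were marked significant, with a p-value of 5e-05 and a q-value of 0.0310 as deposited by the authors, so levels of transcripts without a call are unknown. Depth is unknown, and no interval is given.

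Decimal commas were turned into points with Python 3.11.15 and pandas 2.3.3, and levels were joined across tables, where repeated values differed by 0. The log2 fold changes recomputed from the levels differed from those deposited by at most 1.09e-05. Reading and likeness were tested on simulated data. EtOH was matched to Control as the library left once the other names were matched. Starts were raised by 1 to count from 1. Coding sequences and exons came from GENCODE M21, and alignments used Biopython 1.88. Members and gene lists were chosen with earlier results of these data known. No test was run, since each group has 1 library. Named genes are both members, every listed gene of the Sertoli, Sox9 regulator, Sox9 target, cartilage, ovarian, prostaglandin and cystatin lists, and up to 5 genes per member by likeness, with a highest level of at least 1 FPKM; 1 gene of this rule is not reported here. Xist was chosen after its values were seen. Shares of calls are over the 382 transcripts in any table, because the number tested is unknown. Alternatives were 1 or 0.1 FPKM added, centring on transcripts that the table of a pair does not list but another table does, absolute log2 fold changes of 1 or more, a q-value of 0.01 or less, a higher level of at least 1 FPKM, and lists without cartilage genes or Trf.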

Additional observations from a re-analysis of the deposited data

How the results depend on the processing

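Every log2 ratio of IBU+ACE over another library kept its direction under the alternatives tried. Adding the same amount to both levels cannot change a direction, so only the centring could have done so. With 1 FPKM added to both levels, the log2 ratio of Sox9 in IBU+ACE was 0.66 over Control, 0.66 over ACE+ACE and 0.83 over ASP+ACE, and that of Cst9 over Control was 0.84. With 0.1 FPKM added the values were 0.74, 0.74, 0.93 and 0.85. After the median log2 ratio of transcripts that the table does not list was subtracted, all of them called in some other table and so chosen for a difference, they were 0.65, 0.64, 0.73 and 0.75. These medians were 0.099 over Control (31 transcripts), 0.11 over ACE+ACE (19) and 0.21 over ASP+ACE (28). For Sox9 in ACE+ACE over Control, which is not listed, the values were -0.0018 and -0.0020 with 1 and 0.1 FPKM added and 0.16 after centring. In ASP+ACE over Control they were -0.17, -0.19 and -0.035. A q-value of 0.01 or less left 0 of the 3 Sox9 listings and 0 of the 1 Cst9 listing, but it removes all 726 rows, since each has the same q-value, and says nothing about these genes. A limit of 1 on the absolute log2 fold change also left 0 listings of either gene and 0 Sertoli genes in each comparison with IBU+ACE. Without cartilage genes the Sertoli list held 1 listed gene, Cst9, in IBU+ACE over Control and 0 over ACE+ACE and ASP+ACE, and without Trf it held 0 in ACE+ACE over Control. The planned ratios of Cst9 with ACE+ACE or ASP+ACE gave no value, since no table holds its level there. No paired analysis was possible because each group has 1 library. No library could be left out of a group for the same reason.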

Other observations

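Other SOX genes were looked for after the values of Sox9 and Sox11 had been seen. Of this family 3 genes are listed in any table: Sox9, Sox11 and Sox2. Sox11, which acts in progenitors of nerve and mesenchyme, is listed in the same 3 tables as Sox9, with a log2 ratio of IBU+ACE over Control of 0.66. Sox2, a pluripotency factor of fetal germ cells, is listed in 1 table and was lower, at 12.0 FPKM in Control against 6.39 FPKM in IBU+ACE, a log2 ratio of -0.91. Its deposited locus also covers other annotated genes, so the value may include them. Sox2 has no value in ACE+ACE or ASP+ACE.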
